A study of Mus musculus with 64 samples.

Results

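Ring1B and acetylated histone H3 lysine 27 (H3K27ac) were compared in mouse B cells stimulated with CpG for 24 h, in 6 of the 64 libraries of the study: 3 for Ring1B and 3 for H3K27ac. The cells were CD23+ B cells from the spleens of female F1 mice, taken with a biotinylated antibody to CD23. The mothers were C57BL/6 females with a heterozygous Xist deletion and the fathers were castaneus males, so all groups shared that cross. Whether a library pooled several animals, and the age of the mice, were not given in the sources used here, and the replicates are labelled biological. Stimulated cells were kept for 12 or 24 h with 1 µM CpG, DNA that activates the endosomal receptor TLR9, and 0 h cells received none. CUT&RUN brings a nuclease to an antibody bound on chromatin, so that the DNA around the target is cut free and sequenced. Each library was deposited as a list of peaks called on the Cast allele. Only the 19 autosomes were used here. A region of an antibody was every base inside a peak in at least 2 of its 3 libraries at 24 h. Genes, taken as the body with 2 kb on each side, were placed by these regions: of 33073 protein-coding and lncRNA genes, 6233 (18.9%) had Ring1B in acetylated regions, 5178 (15.7%) had Ring1B only outside them, 1978 (5.98%) had H3K27ac without Ring1B, and 19684 (59.5%) had neither.

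Ring1B is the catalytic E3 ligase of Polycomb repressive complex PRC1, which places a single ubiquitin on a lysine of the histone H2A tail (H2AK119Ub). The related complex PRC2, of which Suz12 is a core subunit, methylates lysine 27 of histone H3 (H3K27me3). Both complexes are best known for keeping developmental regulators silent, and forms of PRC1 that lack the chromobox subunits can also be found at CpG-rich promoters of active genes. H3K27ac marks active promoters and enhancers, and acetylation and methylation cannot sit on the same lysine.

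The promoters of genes with the widest cover in each class are shown so that the reader can see the sequence at these loci, among them how many CG each holds. They are single loci and do not stand for the class medians, which are given with the promoters of all genes. Each line is the 250 bases before the gene start, 5′ to 3′ on the gene's strand, from RefSeq on GRCm38.p6, which is the reference and not the Cast allele, with every CG in capitals. H2ac11 (chr13:22042950-22043199, minus strand, 9 CpG) and H2ac13 (chr13:21716162-21716411, plus strand, 10 CpG), which encode histone H2A, had Ring1B in acetylated regions. Barhl2 (chr5:106458167-106458416, minus strand, 36 CpG) and Dlx2 (chr2:71546755-71547004, minus strand, 24 CpG), homeobox regulators of neural development, had Ring1B outside them. Tstd1 (chr1:171418783-171419032, plus strand, 3 CpG) and S100a4 (chr3:90603520-90603769, plus strand, 2 CpG), which encodes a calcium-binding protein, had H3K27ac without Ring1B.
H2ac11: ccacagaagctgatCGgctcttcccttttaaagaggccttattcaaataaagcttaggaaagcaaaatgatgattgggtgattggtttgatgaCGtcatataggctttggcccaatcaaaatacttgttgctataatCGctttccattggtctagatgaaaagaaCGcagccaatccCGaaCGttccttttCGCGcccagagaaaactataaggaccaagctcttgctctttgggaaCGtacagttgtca
H2ac13: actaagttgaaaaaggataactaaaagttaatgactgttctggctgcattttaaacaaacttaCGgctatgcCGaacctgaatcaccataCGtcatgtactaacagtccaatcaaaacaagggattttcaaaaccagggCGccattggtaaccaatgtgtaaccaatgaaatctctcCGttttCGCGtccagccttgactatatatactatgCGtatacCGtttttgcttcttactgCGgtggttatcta
Barhl2: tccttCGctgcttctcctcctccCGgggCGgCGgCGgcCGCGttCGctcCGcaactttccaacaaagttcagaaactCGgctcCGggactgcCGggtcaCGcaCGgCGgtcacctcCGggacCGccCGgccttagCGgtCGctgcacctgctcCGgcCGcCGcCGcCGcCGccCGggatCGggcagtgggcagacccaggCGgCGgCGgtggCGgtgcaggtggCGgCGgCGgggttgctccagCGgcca
Dlx2: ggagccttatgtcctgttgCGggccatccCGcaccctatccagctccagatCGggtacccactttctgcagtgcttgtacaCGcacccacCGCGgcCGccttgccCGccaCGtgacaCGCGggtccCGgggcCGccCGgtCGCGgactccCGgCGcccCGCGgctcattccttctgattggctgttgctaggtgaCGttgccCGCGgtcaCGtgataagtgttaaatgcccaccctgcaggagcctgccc
Tstd1: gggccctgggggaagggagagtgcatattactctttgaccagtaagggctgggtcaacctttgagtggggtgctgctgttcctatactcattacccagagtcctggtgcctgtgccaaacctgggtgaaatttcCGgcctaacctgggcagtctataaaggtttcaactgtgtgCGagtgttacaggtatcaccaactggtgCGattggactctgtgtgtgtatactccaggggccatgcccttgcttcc
S100a4: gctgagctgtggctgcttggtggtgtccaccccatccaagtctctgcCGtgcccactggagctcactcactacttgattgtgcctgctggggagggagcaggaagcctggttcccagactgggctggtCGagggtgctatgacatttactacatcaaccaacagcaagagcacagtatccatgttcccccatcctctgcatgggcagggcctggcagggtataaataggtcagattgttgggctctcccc

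The Ring1B lists at 24 h held 25778, 26475 and 26426 peaks, covering 76.1, 67.3 and 62.3 Mb. The H3K27ac lists held 15877, 9802 and 9548 peaks, covering 126, 51.6 and 75.5 Mb, so replicate 1 was the longest. Ring1B was called as a fixed top share of signal blocks and H3K27ac at another setting, so the length of a list does not measure how much of the target was bound. For sequencing depth, the sources used here gave no value. The bases common to a pair of Ring1B lists, over the bases that either covered, came to a fraction of 0.180 to 0.200, and those of a Ring1B and an H3K27ac list to 0.126 to 0.164. The single Ring1B lists were therefore only modestly alike. Although the cells were female, Ring1B replicates 1, 2 and 3 had 2, 13 and 13 peaks on the Y chromosome and H3K27ac had 0, 0 and 2. No result here uses them.

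Much of the Ring1B at 24 h lay in acetylated chromatin. Ring1B formed 16322 regions of 35.0 Mb (1.42% of the autosomes, median 1922 bp), and H3K27ac formed 11088 regions of 74.8 Mb (3.04%, median 4830 bp). The 2 sets shared 16.3 Mb, which was 46.6% of the Ring1B bases and 21.8% of the H3K27ac bases, and that share of Ring1B was 15.3 times the acetylated share of the autosomes. Counted as regions, 7497 Ring1B regions (45.9%) touched H3K27ac, and 6104 H3K27ac regions (55.1%) touched Ring1B. The share of Ring1B bases in acetylated regions was 34.3% without H3K27ac replicate 1. The number of genes with H3K27ac and no Ring1B region was 3170 without Ring1B replicate 1, 3241 without Ring1B replicate 3 and 1152 without H3K27ac replicate 1. Gene regions held 82.3% of the shared bases, 72.0% of the Ring1B bases outside acetylated regions and 86.7% of the acetylated bases without Ring1B, beside 50.4% of the autosomes.

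The share of a library's own peak bases inside the 24 h acetylated regions was higher for Ring1B than for any other Polycomb feature at that time, although no difference passed after adjustment. Ring1B at 24 h had 28.2%, 25.6% and 29.1%, a mean of 27.6%. Suz12, which was called at the same setting, had 11.8%, 14.7% and 12.6%, and the 2 antibodies did not overlap. The difference of 14.6 percentage points gave p = 0.1 in a 2-sided exact permutation test, the smallest that 3 against 3 allows, and 0.175 after Benjamini-Hochberg adjustment over the 7 comparisons of this kind. H2AK119Ub, the product of Ring1B, had 13.2% to 15.1% in its 5 libraries, with all 3 Ring1B libraries above them (exact permutation p = 0.0179, adjusted 0.1). That difference of 13.3 percentage points was 4.38 when peaks touching an acetylated region were counted in place of bases. H3K27me3 had 0.524% to 0.691% in 4 libraries (exact permutation p = 0.0286, adjusted 0.1). Both of these p-values were the smallest their designs allow, and the histone marks were called at another setting than Ring1B.

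Ring1B peaks of unstimulated cells lay in the same acetylated regions less often by mean, without passing the test. The share was 13.9%, 19.5% and 18.7% at 0 h and 10.7%, 19.9% and 26.2% at 12 h. All 3 libraries of 24 h were above all 3 of 0 h, while replicate 3 of 12 h reached the 24 h range. The exact permutation test over the 3 times gave p = 0.15 (adjusted 0.21). For 24 h against 0 h the difference of 10.2 percentage points gave an exact permutation p = 0.1, the smallest possible (adjusted 0.175). The test over times gave p = 0.0179 without 12 h replicate 1 and p = 0.0286 without 12 h replicate 3 (exact permutation tests, unadjusted), so single 12 h libraries decided that call.

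**Figure D1:**
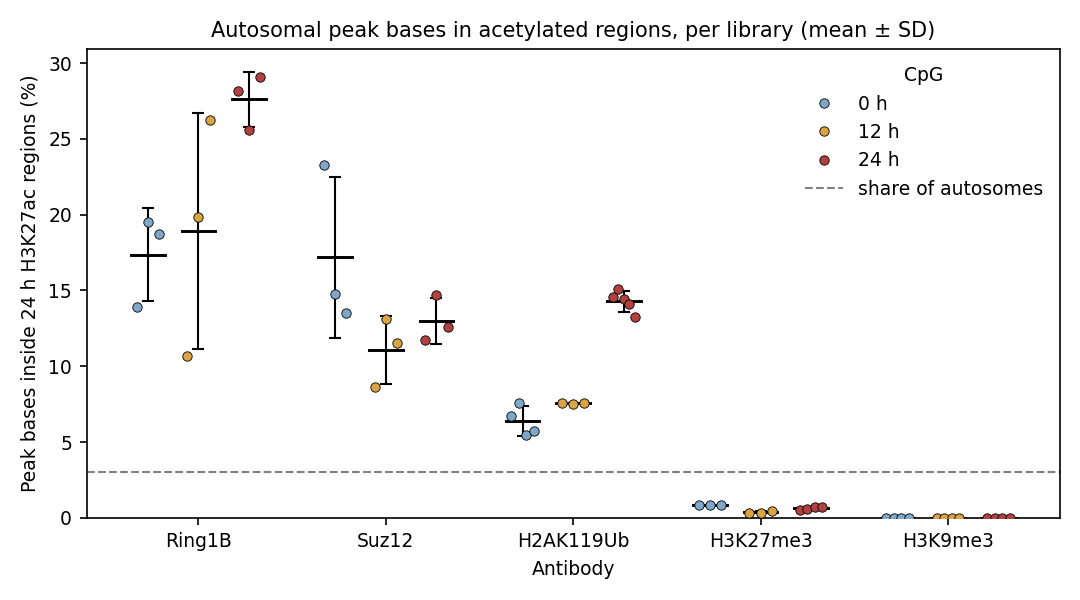
Percent of each library's autosomal peak bases (vertical axis) that lay in the 24 h H3K27ac regions, for 5 antibodies and 3 times; points are libraries and bars are the mean ± SD. Ring1B at 24 h sits at 25.6% to 29.1%, above Suz12 (11.8% to 14.7%), H2AK119Ub (13.2% to 15.1%) and H3K27me3 (below 0.7%) of that time.

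Ring1B bases were found again in a library that had not been used to choose them, somewhat more often inside acetylated regions than outside. Bases shared by 2 Ring1B libraries and acetylated were covered in the remaining library at 81.1%, 70.9% and 75.8%. For Ring1B bases outside acetylated regions the same values were 67.1%, 61.9% and 64.0%. Acetylated bases with no Ring1B peak in the other two libraries were covered at 14.2%, 9.19% and 9.51%, and the autosomes at 3.09%, 2.73% and 2.53%. In each of the 3 libraries the order of these 4 values was the same.

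Other libraries covered the same bases unequally. Ring1B at 0 h covered 35.0%, 45.2% and 40.8% of the 24 h Ring1B bases in acetylated regions and 31.5%, 37.7% and 33.8% of those outside. At 12 h these were 30.4%, 55.4% and 55.5% inside and 22.8%, 38.0% and 35.4% outside. Suz12 at 24 h went the other way, with 20.3%, 33.7% and 27.3% inside and 33.9%, 43.0% and 39.9% outside. H2AK119Ub at 24 h was also higher outside in all 5 libraries, with 26.5% to 70.5% inside and 41.6% to 71.0% outside. Among the 3 Polycomb features of 24 h other than Ring1B, H3K27me3 had the largest gap between the 2 kinds of Ring1B base, at 4.47% to 7.78% inside and 45.4% to 52.5% outside in 4 libraries. H3K27ac of unstimulated cells already covered 23.5%, 57.3% and 59.5% of the bases that carried both at 24 h.

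**Figure D2:**
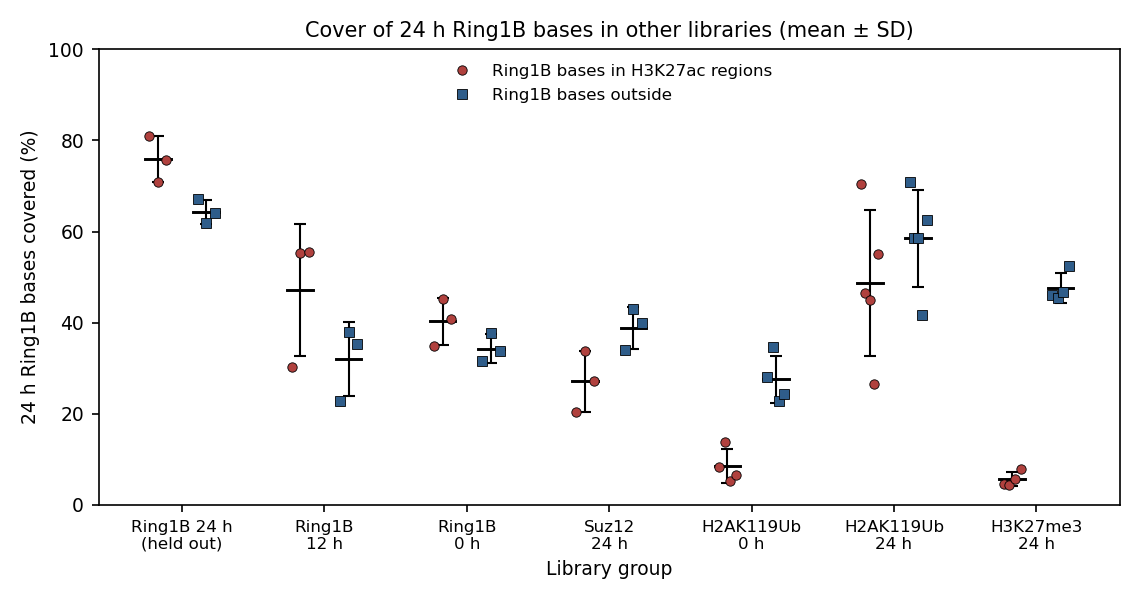
Percent of 24 h Ring1B bases (vertical axis) covered by libraries of other groups, for bases inside and outside 24 h acetylated regions; points are libraries and bars the mean ± SD. Ring1B libraries of 0 and 12 h cover more of the bases inside, the Suz12, H2AK119Ub and H3K27me3 libraries of 24 h more of those outside, and H3K27me3 at 24 h stays below 8% inside.

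A base was next counted for a feature when at least 2 of its libraries at 24 h covered it. There were 5 libraries for H2AK119Ub, 4 each for H3K27me3 and H3K9me3, and 3 for Suz12, so this minimum was easier to reach for H2AK119Ub. Of the Ring1B bases in acetylated regions 61.8% carried H2AK119Ub, 21.5% Suz12 and 5.97% H3K27me3, and 31.4% carried none of the 4 other features. Outside acetylated regions 67.9% carried H2AK119Ub, 36.3% Suz12, 49.5% H3K27me3 and 6.59% H3K9me3, a mark of constitutive heterochromatin, and 19.3% carried none. Acetylated bases without Ring1B carried H2AK119Ub at 24.7%, Suz12 at 1.58% and H3K27me3 at 1.02%, and 74.4% carried none. Of the autosomes, 6.90% were in H2AK119Ub regions, 0.901% in Suz12, 10.5% in H3K27me3, 10.7% in H3K9me3 and 75.15% in none. H2AK119Ub and Suz12 were thus above their autosomal share at both kinds of Ring1B base, and H3K27me3 at those outside alone. H3K9me3 outside was below its autosomal share, and the acetylated bases without Ring1B that carried none were near theirs.

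Gene starts showed where the 2 signals met. Of the 25748 genes matched to a RefSeq promoter, 5056 had Ring1B in acetylated regions: 78.5% of their starts lay in an H3K27ac region, 71.0% in a Ring1B region and 66.3% in both. Ring1B was narrower than H3K27ac around these starts: 44.7% and 43.2% of the points 1 kb before and after the start were in Ring1B regions, and 5.80% and 6.96% at 5 kb. Of the 4050 starts of genes with Ring1B outside, 52.7% were in a Ring1B region and 2.10% in an H3K27ac region. Of the 1534 starts of genes with H3K27ac alone, 60.9% were acetylated. The placement at starts was not used to set the classes, but the cover of the gene was.

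**Figure D3:**
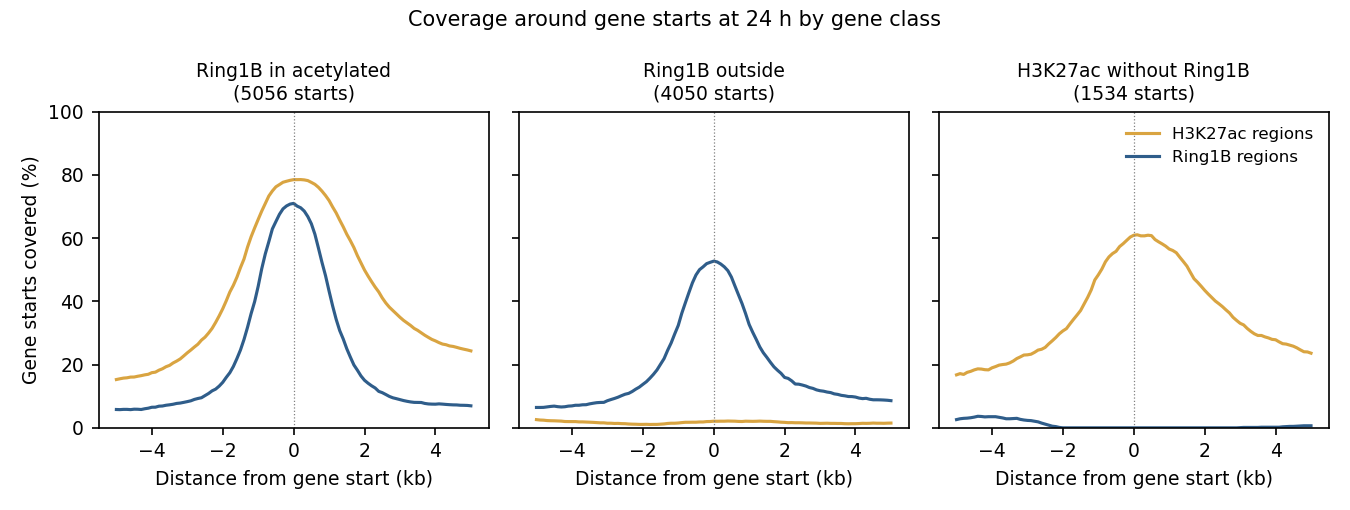
Percent of gene starts covered (vertical axis) by Ring1B and H3K27ac regions of 24 h, against distance from the start in kb, for the gene classes. In genes with Ring1B in acetylated regions both peak at the start, H3K27ac at 78.5% and Ring1B at 71.0%, and Ring1B falls away faster.

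Promoters with Ring1B were rich in CpG whether acetylated or not. In the 300 bases from 250 before to 50 after the start, the median number of CG was 21 for genes with Ring1B in acetylated regions, 17 for those with Ring1B outside, 17 for those with H3K27ac alone, 4 for those with neither and 7 for all. At least 10 CG were present in 77.4%, 68.2%, 63.9% and 25.3% of these promoters, and in 44.6% of all. Grouped by the regions that touched the promoter window itself, the median was 23 for 3494 windows with both, 21 for 2502 with Ring1B alone, 19 for 1565 with H3K27ac alone and 4 for 18187 with neither. The letters CCGGAAG, a core that factors of the ETS family bind, were sought on both strands. They were present in 20.9% of windows with both, 12.0% with Ring1B alone, 21.5% with H3K27ac alone and 9.30% of all, so that sequence followed H3K27ac more than Ring1B. These shares are descriptions of letters in a window, not of binding.

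Genes with Ring1B in acetylated regions and the largest percent of Ring1B cover were led by replication-dependent core histone genes. Percent cover, which ranks the genes of each class here, favours short genes. H2ac11 held 4472 shared bp with its flanks, and the median gene of this class spanned 19.9 kb. H2ac11 (histone H2A; chr13:22042478-22042949) was covered at 100%, 100% and 100% by Ring1B and at 100%, 94.9% and 100% by H3K27ac. H3c1, H2ac13, H3c10, H2bc11, H2ac15 and H2bc3, which encode histones H3, H2A and H2B, had 80.3% to 100% for Ring1B and 70.4% to 100% for H3K27ac. These genes have near-identical copies, lie close together and in part share their flanks, so reads and peaks may not be assigned to single copies. Their mean H3K27me3 cover was 0% at 0 and 24 h. At these histone genes both signals filled nearly the whole gene region.

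Among the other genes of that group, Junb (an AP-1 transcription factor; chr8:84976909-84978748) was covered at 92.6%, 100% and 89.7% by Ring1B and at 100%, 90.9% and 100% by H3K27ac. H2-D1 (a classical MHC class I heavy chain; chr17:35263094-35267497) was covered at 98.5%, 80.6% and 97.4% by Ring1B and at 98.9%, 96.6% and 100% by H3K27ac. Junb had no H3K27me3 at 0 or 24 h. H2-D1 had an H3K27me3 cover of 0% at 0 h and 70.5% at 24 h by mean. MHC class I genes also have close relatives, and the assignment of reads to H2-D1 is uncertain for that reason.

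Genes with Ring1B outside acetylated regions were led by developmental transcription factors. Barhl2 (chr5:106452523-106458166), Dlx2, Evx1, Foxb2, Foxd1, Foxl2, Hoxa7, Hoxa9, Hoxd12 and Hoxd13, homeobox and forkhead regulators of body patterning and organ formation, were covered at 100% in all 3 Ring1B libraries and at 0% in all 3 H3K27ac libraries. More genes tied at these values than are named, and ties were taken in alphabetical order. At 24 h the mean H3K27me3 cover of these 10 was 96.5% to 100% and the mean H2AK119Ub cover 84.1% to 100%. The whole gene region was therefore Polycomb-covered at these loci.

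Genes with H3K27ac and no Ring1B peak in any library of 24 h were of mixed function. Tstd1 (chr1:171419033-171420352) was covered by H3K27ac at 100%, 100% and 97.0%, and S100a4 (chr3:90603770-90606045) at 87.1%, 92.3% and 100%. Fcer2a, which encodes CD23, the receptor used to isolate the cells, was covered at 100%, 71.8% and 67.1%. Btla, an inhibitory receptor of lymphocytes, was covered at 100%, 74.3% and 92.8%. Lst1, Atxn7l3b, Rps10 (a ribosomal protein), Scd1 (a fatty acid desaturase), Uqcr10 (a subunit of respiratory complex III) and Nrp had 48.1% to 100%. Their mean H2AK119Ub cover at 24 h did not exceed 28.8%, and that maximum was at S100a4.

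Gene by gene, the 2 antibodies were set on 1 scale by dividing the percent of a gene region covered by the percent of the autosomes the library covers, and taking log2 of that value plus 1. Of 12692 genes with a peak in at least 3 of 6 libraries, limma found 2794 higher for Ring1B (22%) and 1644 higher for H3K27ac (13%) at a Benjamini-Hochberg adjusted p of 0.05. The median difference of all tested genes was 0.06. Of the 2794, 2423 had no H3K27ac peak in any 24 h library. The 22% set beside the gene lists below is therefore made mostly of such genes. A low count for Ring1B in a list with H3K27ac is not read against it. Of all genes tested, 2554 had no H3K27ac peak and could not be higher for H3K27ac. The 13% is therefore a low mark for a list of acetylated genes. Where both antibodies had a peak in all 3 libraries, 917 genes were higher for H3K27ac, 42 for Ring1B, and 3462 were not called. A gene at 0 for an antibody in all 3 libraries passed the filter only through the other antibody and so had to differ. For the genes of this kind named below the cover is a description, with no p. Of the 1644, 257 had no Ring1B peak and 917 had both antibodies in all 3 libraries. With a peak required in 4 of 6 libraries, which drops the former kind, 115 were higher for Ring1B and 638 for H3K27ac. These values also set the gene classes, so nothing is read from the counts by class. The number higher for H3K27ac was 967 without H3K27ac replicate 3.

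The genes with the smallest adjusted p on the Ring1B side were Mt1 (a metallothionein), Tlx3, Irx5, Hoxa13 and Osr2, each covered at 89.8% to 100% by Ring1B and at 0% by H3K27ac. On the H3K27ac side they were Fau, Scd1, Bcl2a1b, Uqcr10 and Max, all at 0% for Ring1B. Fau, which encodes a ribosomal protein fused to a ubiquitin-like protein, was covered at 93.4%, 51.0% and 61.8% by H3K27ac. The 9 genes described above for the widest Ring1B in acetylated regions did not pass this test, but with lists trimmed to equal numbers of peaks all 9 did, at log2 differences of 1.29 to 1.55. Where both antibodies cover nearly all of a gene, this difference is set by the autosomal cover of the lists, so trimming the longer Ring1B lists raises it by construction.

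Genes of B cell identity carried Ring1B inside broad acetylation. Of 26 measured, 22 had Ring1B in acetylated regions, 3 had H3K27ac alone and 1 had neither. Of all genes these classes held 18.9%, 5.98% and 59.5%. Among members with an H3K27ac region, 22 of 25 had Ring1B in acetylated regions, beside 6233 of 8639 over all genes. The median cover of the list was 14.1% for Ring1B and 88.2% for H3K27ac. Of the 25 that entered the test, 18 were higher for H3K27ac and 0 for Ring1B. Of all genes tested these shares were 13% and 22%, the latter mostly genes without H3K27ac. The median log2 difference was −2.15, against 0.06 for all genes tested. Acetylation was the wider signal across most of the list.

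Bach2 (a repressor that holds B cells back from plasma cell fate; chr4:32238413-32586109) had the most shared bases of the list, 36060 bp. It was covered at 15.8%, 12.7% and 15.7% by Ring1B and at 99.7%, 80.2% and 84.3% by H3K27ac (log2 difference −2.17, SE 0.32, limma adjusted p = 0.00312). Pax5 (the B lineage commitment factor; chr4:44524748-44710694) shared 19945 bp and was covered at 18.5%, 14.2% and 12.9% by Ring1B and at 99.4%, 75.6% and 90.1% by H3K27ac (−2.15, SE 0.30, limma adjusted p = 0.00256). In both genes every H3K27ac value was far above every Ring1B value. Ciita, the master regulator of MHC class II, followed the same order with 23.0%, 23.4% and 13.2% for Ring1B and 90.2%, 64.1% and 69.5% for H3K27ac. Irf8 (a transcription factor of B and myeloid cells; chr8:120736358-120756694) was covered more by Ring1B, at 76.8%, 47.1% and 36.2%, beside 95.9%, 86.8% and 92.2% for H3K27ac. Its log2 difference of −0.62 did not pass (limma adjusted p = 0.243), and it was 0.15 with lists of equal length. Spib, an ETS factor of B cells named after its values were seen, was covered at 74.7%, 61.0% and 80.1% by Ring1B and at 91.9%, 57.5% and 58.9% by H3K27ac.

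Genes of TLR and NF-kB signalling, the route by which CpG acts, also mostly held Ring1B in acetylated regions. Of 31 measured, 22 had Ring1B in acetylated regions, 7 had H3K27ac alone, and 1 each had Ring1B outside or neither. Among members with an H3K27ac region this was 22 of 29, near the 6233 of 8639 over all genes and the 13 of 18 of housekeeping genes. It is therefore not read as particular to this route. Of 30 tested, 12 were higher for H3K27ac and 0 for Ring1B (median log2 difference −1.43), beside 13% and 22% of all genes. Nfkbia, which encodes the inhibitor IκBα, had no Ring1B peak and 100%, 34.0% and 83.5% H3K27ac. Rel, which encodes the NF-kB subunit c-Rel, was covered at 4.07%, 5.02% and 7.89% by Ring1B and at 97.7%, 72.7% and 82.8% by H3K27ac (−3.18, limma adjusted p = 0.00141). Irak3, a negative regulator of TLR signalling with 9539 shared bp, was covered at 16.8%, 17.5% and 17.9% by Ring1B and at 46.1%, 35.2% and 37.8% by H3K27ac, and did not pass (limma adjusted p = 0.0807, or 0.0429 without H3K27ac replicate 1). Nfkb1, Traf1 and Nfkbiz shared 4893 to 6923 bp.

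Among 36 activation genes, 25 had Ring1B in acetylated regions, 4 had it outside, 2 had H3K27ac alone and 5 had neither. Of the 31 tested, 10 were higher for H3K27ac and 2 for Ring1B, beside 13% and 22% of all genes. Nfatc1 (a calcium-regulated transcription factor) shared 16212 bp and was covered at 17.5%, 24.6% and 16.6% by Ring1B and at 73.3%, 52.2% and 51.4% by H3K27ac (log2 difference −1.27, limma adjusted p = 0.0253). Batf (an AP-1 factor needed for class switching) was covered at 36.0%, 19.1% and 24.5% by Ring1B and at 99.5%, 59.8% and 87.8% by H3K27ac (−1.35, limma adjusted p = 0.0142). Neither call was firm: Batf did not pass without H3K27ac replicate 3 (limma adjusted p = 0.06), nor Nfatc1 without H3K27ac replicate 2 or 3 or Ring1B replicate 1 or 3 (limma adjusted p = 0.0652 to 0.0694). The genes counted as higher for Ring1B were both immediate-early AP-1 genes that entered the test only through Ring1B, so their cover is a description. Fosb was covered at 77.3%, 82.3% and 64.8% by Ring1B, and Fos at 15.3%, 16.5% and 31.4%, with no H3K27ac in either. Ring1B thus covered both Junb and Fosb widely, and only the former was acetylated.

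Of 12 plasma cell genes, 9 had Ring1B in acetylated regions, 1 had H3K27ac alone and 2 had neither. Prdm1, which encodes the plasma cell regulator Blimp-1, was the 1 member higher for Ring1B, at 15.4%, 11.0% and 11.2% against 6.36%, 1.86% and 5.37% for H3K27ac (log2 difference 1.27, SE 0.31, limma adjusted p = 0.0222, and 0.0771 without H3K27ac replicate 2). The call was not firm. It was also lost on the unscaled percent, with a peak required in 4 or in 1 of 6 libraries, and with the replicate block (limma adjusted p = 0.0974, 0.0993, 0.0502 and 0.0786). Cd38 shared 7679 bp and was higher for H3K27ac (−1.62, limma adjusted p = 0.0172), but did not pass without H3K27ac replicate 2 or 3 or Ring1B replicate 1 or 3 (limma adjusted p = 0.0507 to 0.0633). In all 5 of 10 tested members were higher for H3K27ac, beside 13% of all genes.

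Cell cycle genes were spread over the classes, while ribosomal protein genes lay mostly in 1 of them. Of 33 cell cycle and replication genes, 19 had Ring1B in acetylated regions, 8 had it outside, 2 had H3K27ac alone and 4 had neither, with 2 higher for Ring1B and 3 for H3K27ac of 27 tested, beside 22% and 13% of all genes. Cdkn2a (the INK4A/ARF locus, a well-known Polycomb target; chr4:89274473-89294619) was covered at 90.6%, 98.8% and 90.7% by Ring1B and at 0% by H3K27ac. Cdc20, an activator of the anaphase-promoting complex, was covered at 15.2%, 25.3% and 27.2% by Ring1B alone. Cdk6, Ccnd3 and Rb1, which act at entry into S phase, were higher for H3K27ac, with log2 differences of −1.15, −1.86 and −2.44 in limma. Cdk6 did not pass without H3K27ac replicate 2 or 3 (limma adjusted p = 0.0717 and 0.0857), with a peak required in 4 of 6 libraries (0.113), or on the unscaled percent (0.101). With lists of equal length its difference was −0.15 (limma adjusted p = 0.666). Of 38 ribosomal protein genes, 31 had Ring1B in acetylated regions, and 9 of 37 tested were higher for H3K27ac and 0 for Ring1B, beside 13% and 22% of all genes. That 13% includes genes without H3K27ac, so the 9 are not read as particular to this list. Among ribosomal protein genes Rpl13a had the most shared bases, 5677 bp, with 96.8%, 72.9% and 77.4% for Ring1B and 100%, 95.9% and 96.7% for H3K27ac. Many ribosomal protein genes have processed copies, which makes their read assignment uncertain. Of 23 ribosome biogenesis genes, 14 had Ring1B in acetylated regions, 4 outside, 1 H3K27ac alone and 4 neither. Of 22 housekeeping genes these numbers were 13, 4, 3 and 2. Ring1B in acetylated regions was therefore not limited to lymphocyte genes.

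Polycomb target transcription factors, a list of 62 regulators of embryonic patterning, had Ring1B without acetylation. Of these, 54 had Ring1B outside acetylated regions, 0 had it inside, and 8 had neither. None had an H3K27ac peak in any of the 3 libraries at 24 h. Of the 44 tested, 44 were higher for Ring1B, but with H3K27ac at 0 a member entered the test only with Ring1B in all 3 libraries. The median cover over all 62 was 33.2% for Ring1B, 59.9% for H2AK119Ub and 96.5% for H3K27me3 at 24 h.

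The Polycomb genes themselves were divided. Of 35 subunits and partners, 11 had Ring1B in acetylated regions, 12 had it outside, 5 had H3K27ac alone and 7 had neither. Epop (a PRC2 partner) was covered by Ring1B at 100%, 67.7% and 37.4%, and Cbx8 (a PRC1 chromobox subunit) at 72.0%, 79.9% and 61.2%. Pcgf1 (the ring-finger partner in variant PRC1) was covered at 39.0%, 36.9% and 41.7%. All were without H3K27ac, so their cover is a description and not a test result. Jarid2 (a PRC2 cofactor) and Asxl1 (a subunit of the H2A deubiquitinase) were higher for H3K27ac, with log2 differences of −1.78 and −2.55 in limma. Neither passed on the unscaled percent (limma adjusted p = 0.0725 and 0.078), nor did Jarid2 with a peak required in 4 of 6 libraries (0.0508). Rnf2, which encodes Ring1B and is named here after its values were seen, was covered at 6.90%, 4.69% and 11.3% by Ring1B and by H3K27ac in replicate 1 alone (38.6%). Of 21 acetyltransferases, deacetylases and acetyl-lysine readers, 12 had Ring1B in acetylated regions, 1 outside, 4 H3K27ac alone and 4 neither. Of 17 tested, 6 were higher for H3K27ac (Kat6a, Kat7, Kat8, Hdac1, Hdac7 and Ncoa3) and 0 for Ring1B, beside 13% and 22% of all genes. Of these, 3 calls were lost when single libraries were left out: Kat7 without H3K27ac replicate 2, Hdac1 without H3K27ac replicate 2 or Ring1B replicate 1 or 2, and Hdac7 without any 1 H3K27ac library or Ring1B replicate 1 (limma adjusted p up to 0.0872). Brd2, a bromodomain reader with 5309 shared bp, was covered at 30.4%, 35.7% and 37.4% by Ring1B and 72.8%, 36.2% and 41.7% by H3K27ac (log2 difference −0.25, limma adjusted p = 0.487). With lists of equal length it was higher for Ring1B (1.15, limma adjusted p = 0.0174).

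Interferon response genes fell on both sides: of 20, 6 had Ring1B in acetylated regions, 6 had it outside, 2 had H3K27ac alone and 6 had neither. Oas1a (a sensor of double-stranded RNA) and Cxcl10 (a chemokine) had Ring1B in all 3 libraries and no H3K27ac. They entered the test only through Ring1B, so this is a description and not a test result. Ddx58 (the RNA sensor RIG-I) was higher for H3K27ac. The call of Ddx58 was lost without any 1 H3K27ac library. That call was also lost without Ring1B replicate 1 or 3.

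**Figure D4:**
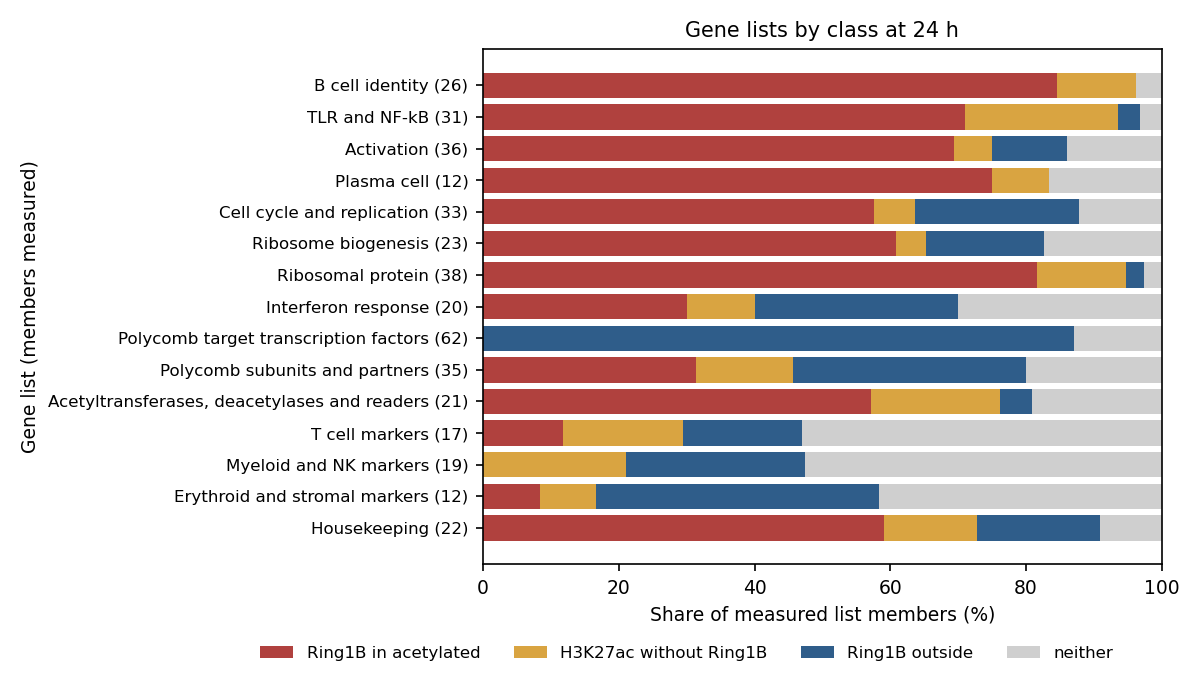
Share of the measured members of each of the 15 gene lists (horizontal axis, percent) in each class at 24 h; the number measured is in brackets. B cell identity (22 of 26) and ribosomal protein genes (31 of 38) lie mostly in the class with Ring1B in acetylated regions, which holds 18.9% of all genes. Polycomb target transcription factors (54 of 62) lie mostly in the class with Ring1B outside, which holds 15.7% of all genes.

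Markers of other cells had less acetylation in sum than those of B cells, and some members had H3K27ac. The H3K27ac percentages of the 26 B cell genes summed to 1754 to 2272 in the 3 libraries, with 25 or 26 members covered in each. Those of 17 T cell markers summed to 68.3 to 134, those of 19 myeloid and NK markers to 17.4 to 115, and those of 12 erythroid and stromal markers to 66.8 to 126. An H3K27ac region lay on 5 of 17, 4 of 19 and 2 of 12 of them, and T cell markers with a peak numbered 7, 5 and 3 in replicates 1, 2 and 3. Cd3e, Cd8a, Cd28 and Thy1 of T cells and Lyz1, Lyz2, S100a8 and S100a9 of myeloid cells were at 0 for H3K27ac in all 3 libraries. Cd3d of T cells at 39.9% to 43.5%, Klrb1c of NK cells at 17.4% to 80.7% and Pecam1 of endothelium at 56.9% to 95.8% carried it. These 11 marker genes are named after their values were seen. Ring1B lay on some lineage regulators of other cells: Gata3 of T cells (55.2%, 46.2% and 47.1%), Cebpa of myeloid cells (36.9%, 34.5% and 32.9%) and Tal1 of the erythroid lineage (38.0%, 48.2% and 46.4%) had no H3K27ac. The part of other cells in the results was not tested.

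Marks that had not been used to set the classes were then compared between 24 and 0 h. H2AK119Ub covered more of all 3 classes at 24 h. In genes with Ring1B in acetylated regions the mean cover per library was 3.22%, 5.34%, 2.13% and 2.51% at 0 h and 31.5%, 17.2%, 16.1%, 9.49% and 23.8% at 24 h. In genes with Ring1B outside it was 11.0%, 15.0%, 8.78% and 9.89% at 0 h and 39.3%, 28.3%, 27.9%, 18.7% and 33.6% at 24 h. In genes with H3K27ac alone the 0 h libraries ranged from 0.952% to 2.22%, and the 24 h libraries from 3.71% to 19.7%. Libraries of the 2 times did not overlap in any of the 3 classes. The mean over all genes also went from 3.23% to 13.4%, so the lists of 24 h were longer everywhere.

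By gene, limma called H2AK119Ub higher at 24 h in 1755 of 3872 tested genes with Ring1B in acetylated regions (45.3%), in 1679 of 3980 with Ring1B outside (42.2%) and in 258 of 786 with H3K27ac alone (32.8%), beside 39.6% of all 13350 tested. It called 8, 14 and 5 lower, beside 0.449% of all. The first 2 shares were near that of all genes. At 0 h a mean of 11.85%, 27.7% and 5.64% of the genes in these 3 classes had an H2AK119Ub peak, beside 8.99% of all. Tested genes with none at 0 h entered only through stimulated libraries and could not be lower, so these counts are a description. Once every library was divided by its autosomal cover, 41%, 32% and 30% were higher (33.5% of all), and 5.84%, 17.4% and 4.71% were lower (8.88% of all). A gene covered fully at both times is lower by construction after that division. Without single 0 h libraries the numbers higher moved by over 1.5 times: without replicates 1, 3 and 4 they were 1130, 1104 and 1111 for Ring1B in acetylated regions, without replicates 3 and 4 they were 1099 and 1103 for Ring1B outside, and without replicates 1 to 4 they were 131, 154, 126 and 125 for H3K27ac alone. For H3K27ac alone the number was 167 without 24 h replicate 1.

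The ratio of H2AK119Ub cover between the 2 kinds of Ring1B gene was higher at 24 h, and it also went with list length within a time. The mean cover of genes with Ring1B in acetylated regions, divided by that of genes with Ring1B outside in the same library, was 0.292, 0.357, 0.242 and 0.254 at 0 h and 0.800, 0.608, 0.577, 0.507 and 0.708 at 24 h. The means were 0.286 ± 0.0515 (SD, n = 4) and 0.640 ± 0.115 (SD, n = 5), and every library of 24 h was above every library of 0 h. The difference of 0.354 gave an exact permutation p = 0.00794, the smallest the design allows, and 0.0238 after adjustment over the 3 antibodies. This ratio was chosen after the class means had been seen. List length differed between the times, and its part was not tested. At 24 h the ratio rose with the cover of the list, from 0.507 at 59.1 Mb to 0.577 at 112.1, 0.608 at 113.1, 0.708 at 162.8 and 0.800 at 212.8 Mb. At 0 h the shortest list, 27.7 Mb, had 0.242 and the longest, 58.5 Mb, had 0.357. In a pair of libraries of like length, 0 h replicate 2 (58.5 Mb) had 0.357 and 24 h replicate 4 (59.1 Mb) had 0.507. At 12 h the ratio was 0.409 to 0.492 in lists of 100.2 to 160.8 Mb.

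**Figure D5:**
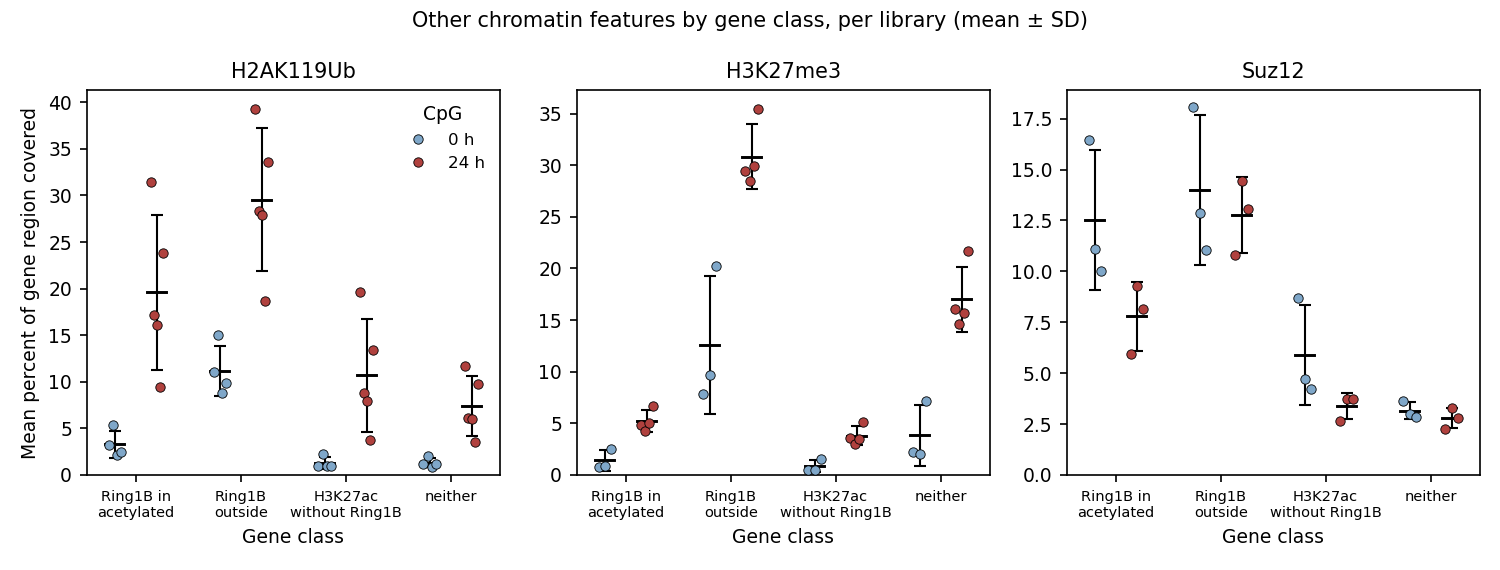
Mean percent of the gene region covered (vertical axis) by other chromatin features in each gene class at 0 and 24 h. Points are libraries and bars the mean ± SD. H2AK119Ub in genes with Ring1B in acetylated regions goes from a mean of 3.30% at 0 h to 19.6% at 24 h, and H3K27me3 stays highest in genes with Ring1B outside.

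H3K27me3 covered more of the genes with Ring1B outside acetylated regions than of those with it inside. Its mean cover outside was 7.86%, 9.67% and 20.2% at 0 h and 29.5%, 28.5%, 29.9% and 35.5% at 24 h. In genes with Ring1B in acetylated regions it was 0.807%, 0.874% and 2.55% at 0 h and 4.86%, 4.28%, 5.07% and 6.68% at 24 h. Genes with neither antibody had 3.83% at 0 h and 17.01% at 24 h by mean. It was called higher in 784 of 1277 genes (61.4%) with Ring1B in acetylated regions, 2152 of 3225 (66.7%) with Ring1B outside and 197 of 326 (60.4%) with H3K27ac alone. With neither it was higher in 4777 of 6586 (72.5%), beside 69.3% of all 11414. It was called lower in 1 gene of all tested (0.00876%). Tested genes without H3K27me3 at 0 h, such as H2-D1, entered only through stimulated libraries and could not be lower, so these counts are a description. Divided by autosomal cover, 19.7%, 15.7% and 24.8% were higher (21.9% of all), and 5.72%, 16.3% and 3.37% were lower (8.46% of all). Without 0 h replicates 1 and 2 the numbers higher were 470 and 454, 1261 and 1254, and 103 and 102. The ratio of the class means was 0.106 ± 0.0182 (SD, n = 3) at 0 h and 0.168 ± 0.0157 (SD, n = 4) at 24 h, with an exact permutation p = 0.0286, the smallest possible (adjusted 0.0429). The lists covered 29.7 to 94.4 Mb at 0 h and 201.2 to 310.5 Mb at 24 h, and the part of list length in this ratio was not tested. At 12 h the ratio was 0.101 to 0.113. None of the 3 classes had a share of genes with more H3K27me3 above that of all genes tested before division.

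Suz12 did not rise with these marks. It was called higher or lower at 24 h in 0 of 17862 genes by limma (1403 had an unadjusted p under 0.05). Divided by autosomal cover, 1 gene, with Ring1B outside, was higher (0.0056% of all) and 0 were lower. Without 0 h replicates 1, 2 and 3 in turn, 5, 1 and 1 genes with Ring1B outside were higher. Its mean cover of genes with Ring1B in acetylated regions was 16.4%, 11.1% and 10.0% at 0 h and 5.95%, 9.28% and 8.16% at 24 h. Every library of 24 h was thus below every library of 0 h. With Ring1B outside the cover was 18.1%, 12.9% and 11.0% and then 10.8%, 14.5% and 13.1%, and the times overlapped. The ratio of the 2 classes was 0.893 ± 0.0255 at 0 h and 0.606 ± 0.0483 at 24 h (SD, n = 3 each), without overlap, at an exact permutation p = 0.1 that is the smallest possible (adjusted 0.1). H3K9me3 was rare: 47 genes with Ring1B in acetylated regions, 216 with Ring1B outside and 11 with H3K27ac alone were tested, of which 35 (74.5%), 163 (75.5%) and 9 (81.8%) were higher at 24 h, beside 63.4% of all. Divided by autosomal cover, 19, 106 and 7 were higher (36.5% of all), and 0, 7 and 0 were lower (1.77% of all). For Ring1B in acetylated regions the number was 23 without 0 h replicate 4.

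Some genes with Ring1B in acetylated regions had no H2AK119Ub peak at 0 h and wide cover at 24 h. Isg15 (an interferon-induced ubiquitin-like modifier; chr4:156199424-156200818) was at 0% in all 4 libraries of 0 h and at 100%, 100%, 100%, 83.0% and 100% at 24 h. Spib (chr7:44525995-44532087) was at 0% in all 4 and then at 100%, 100%, 84.6%, 100% and 100%. Cdk4 (a cyclin-dependent kinase of G1 phase; chr10:127063535-127067288) was at 0% and then at 100%, 64.5%, 73.1%, 91.6% and 100%. Genes at 0% in every library of 0 h entered the test only through stimulated libraries, so their cover is given as a description, with no p. Isg15 was also higher for H3K27me3, with 0%, 0% and 14.6% at 0 h and 53.1%, 82.7%, 68.0% and 100% at 24 h (limma adjusted p = 0.00107), whereas Spib and Cdk4 had none at either time.

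Nfkb2 (an NF-kB subunit), at 0% in the 0 h libraries, was covered by H2AK119Ub at 93.1%, 80.4%, 52.1%, 38.0% and 87.1% at 24 h. Irf8 was at 0% and then at 76.6%, 78.1%, 56.2%, 19.5% and 93.5%, and Batf at 0% and then at 70.7%, 32.9%, 69.2%, 52.4% and 56.0%. Junb was at 0% and then at 84.0%, 100%, 0%, 0% and 88.0%, so its gain was not seen in all libraries of 24 h. Among genes with Ring1B outside, Fosb was at 0%, 58.1%, 0% and 0% and then at 100%, 100%, 81.4%, 45.6% and 100% (limma adjusted p = 0.00717, or 0.0988 after division by autosomal cover). Irx5 went from 3.45% to 90.0% by mean (limma adjusted p = 0.00026), while Cdkn2a and Hoxa7 were already at 100% in all 0 h libraries. Over the lists, H2AK119Ub was called higher in 9 of 13 tested B cell identity genes (26 measured), 11 of 20 TLR and NF-kB genes (31) and 14 of 28 activation genes (36). Cell cycle genes had 7 of 22 tested (33) and Polycomb target transcription factors 26 of 52 (62), beside 39.6% of all genes tested. Markers of T cells had 7 of 13 tested, of myeloid and NK cells 6 of 12, and of erythroid and stromal cells 4 of 8. Interferon response genes had 6 of 12, Polycomb subunits and partners 6 of 25 and housekeeping genes 1 of 5. The mark was lower in 0 of each list. Members at 0% in every 0 h library entered these tests only through stimulated libraries and could not be lower, so the counts by list are a description. Isg15, Spib, Cdk4, Nfkb2, Irf8, Batf, Fosb and Irx5 were described for this mark after its values were seen.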

How the data were processed

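The deposited data were 1 peak list per library, with 6 columns and no header, and replicates were called separately. The list names carry SEACR and Cast, with "norm relaxed" for histone marks and "non, 0.01, stringent" for Ring1B and Suz12. Per the labels the build is mm10. Tools named in the submitters' processing notes were deepTools 3.5.1, Picard, Bowtie2 2.3.4.1 and Trimmomatic 0.32. For the SEACR version, the rule that assigned reads to the Cast allele and the depth, the sources used here gave nothing. The authors' signal columns (summed and maximal coverage) served only to rank peaks within a list. Labels named 61 libraries with lists, and 3 IgG samples were not analysed here. No value column lacked a sample.

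Columns 1 to 3 of autosomal peaks were intersected with 33073 RefSeq genes (GRCm38.p6) with 2 kb flanks. limma 3.58.1 (R 4.3.3; trend, robust, Benjamini-Hochberg 0.05) tested Ring1B against H3K27ac on log2(relative coverage + 1), and each mark at 24 against 0 h on percent covered, with 12 h libraries in the fit, for genes with a peak in at least 3 libraries. Single values were compared by 2-sided exact permutation tests. The scripts were tested on simulated data. Python 3.11.15, numpy 2.4.6, pandas 2.3.3 and matplotlib 3.10.9 were used. p-values measure the spread between libraries labelled as biological replicates.

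Named genes were protein-coding genes other than predicted models: the 10 with the widest cover in each class (antibodies of that class in 3 of 3 libraries, the other at 0 for Ring1B outside and for H3K27ac alone), the 5 with the smallest adjusted p in each direction, and, per list, up to 4 members with the most shared bases and those called by limma. Results for a few genes that this rule names are not reported here. The compared libraries, the 15 gene lists and the tests were chosen with earlier results of these data known. Alternatives were other library minimums, flanks, filters, pseudocounts and scalings, equal list lengths, a replicate block, and leaving out each replicate.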

Additional observations from a re-analysis of the deposited data

Results flagged for a closer look

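Among 27 checks for a distant sample, made on several measures of groups of 4 or 5 libraries, 1 found such a sample. Chance gives about 1 in 20 per check, and the checks share libraries, so they are not independent. In genes with H3K27ac and no Ring1B, the mean H2AK119Ub cover at 0 h was 2.22% in replicate 2 and 0.952%, 0.962% and 0.972% in the other libraries. The gap was 0.984 of the group's whole range. That library's list also covered the most of the 4, 58.5 Mb, and the part of list length was not tested.

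Peaks on the Y chromosome appeared in lists of female cells, outside the autosomes that the comparisons use. Ring1B replicates 2 and 3 at 24 h each had 13, spanning 29.1 and 24.2 kb, above the limit of 3 that a count of 0 allows. Ring1B replicate 1 had 2, H3K27ac replicate 3 had 2, and H3K27ac replicates 1 and 2 had 0. Such peaks were not particular to these libraries: Ring1B at 0 and 12 h had 6 to 15, and Suz12 over the times had 3 to 17. The source of these peaks was not tested.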

How the results depend on the processing

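Of the values that answer a comparison, 75 kept their side of the threshold or stayed within 1.5 times (shares: within 1 SD) under settings other than leaving out a library, and 30 moved. With bases covered in at least 1 library, 9824 genes had Ring1B in acetylated regions, 9899 had it outside and 1117 had H3K27ac alone, and 29.1% of Ring1B bases were acetylated. With all 3 libraries, 3456 genes and 41.1% of bases had Ring1B in acetylated regions, and with the stronger part of each list 4073 genes and 38.9%. Ring1B exceeded H3K27ac in 1761 genes when a peak in 1 of 6 libraries sufficed, and in 115 when 4 were needed, with 638 the other way. Divided by autosomal cover, H2AK119Ub was lower at 24 h in 226, 693 and 37 genes (Ring1B in acetylated regions, outside, H3K27ac alone), H3K27me3 was higher in 252, 506 and 81 and lower in 73, 526 and 11, Suz12 was higher in 1 gene with Ring1B outside, and H3K9me3 was higher in 19 and 106 genes of the first 2 classes. With a peak in 1 library sufficing, H2AK119Ub was lower in 2 genes with H3K27ac alone and H3K27me3 in 2 with Ring1B in acetylated regions. Division by autosomal cover changes these counts by its own construction, as does a filter that changes which genes are tested; the cause was not tested for the others.

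Same-numbered Ring1B and H3K27ac libraries did not deviate together (correlations −0.033, −0.011 and −0.032), and no library correlated over 0.1 with its own number. With the replicate block, H2AK119Ub was higher in 1129, 1117 and 154 genes and lower in 5 and 6 genes of the first 2 classes, and Ring1B exceeded H3K27ac in 2554 genes and the reverse held in 1098.

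Leaving out each library in turn gave 4565 to 5665 genes with Ring1B in acetylated regions, 3533 to 6846 with it outside, 1152 to 3241 with H3K27ac alone and 34.3% to 50.9% of Ring1B bases acetylated. Ring1B exceeded H3K27ac in 2229 to 3078 genes, and the reverse held in 967 to 1389. H2AK119Ub was higher in 1104 to 2405, 1099 to 2197 and 125 to 367 genes, and lower in 3 to 9, 6 to 18 and 2 to 5. H3K27me3 was higher in 454 to 818, 1254 to 2385 and 102 to 200, and lower in 1 to 2 of the first class and 0 to 1 of H3K27ac alone. Suz12 was higher in 0 to 5 genes with Ring1B outside, and H3K9me3 in 23 to 35 of the first class. The difference of Ring1B over time was 7.26 to 11.3 percentage points (exact permutation p = 0.0179 to 0.214), that of Ring1B from H3K27me3 was 19.2 to 28.0 (exact permutation p = 0.0286 to 0.1), and that of the H3K27me3 ratio was 0.0537 to 0.0717 (exact permutation p = 0.0667 to 0.1). The last 2 designs cannot reach 0.05 once a library of either compared group is gone, which says nothing about stability.

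For single genes, 464 values kept sign and call under settings other than leaving out a library, 35 lost a call, 10 gained it and 5 changed sign or fell to 0. With a library left out, 532 kept both, 35 lost a call, 4 gained it and 7 changed sign. The 10 calls gained with the sign kept were at the genes with the widest Ring1B in acetylated regions, under lists of equal length, and Brd2 passed there with the opposite sign. Leaving out libraries moved the log2 difference across 0, without passing, at H2ac11 (−0.09 to 0.49), H3c1 (−0.12 to 0.49), H2ac15 (−0.068 to 0.55), Junb (−0.15 to 0.41), H2-D1 (−0.22 to 0.38) and H2bc3 (−0.058 to 0.37), lowest without H3K27ac replicate 1. It also changed sign at H2-D1 without Ring1B replicate 3 (−0.006), on the percent scale at Junb (−2.85) and H2-D1 (−6.31), where H3c1 was at 0, and with lists of equal length at Irf8 (0.15) and Brd2 (1.15). Depth was not given, so no interval for counting error could be formed.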
